A study of Mus musculus with 12 samples.

Results

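The genes described here are the 9 that carry fatty acids from lipoproteins into a fat cell and prepare them for use: Lpl, Lmf1, Angptl4, Cd36, Slc27a1, Slc27a4, Fabp4, Fabp5 and Acsl1. They were chosen by name out of 17090 genes with a row in the count table. RNA was sequenced from MTΔECad cells, a mouse breast cancer line with mesenchymal character, on the way to becoming fat cells. The groups were 0 h, 6 h, day 3, day 5, day 7 and day 10, with 2 libraries at each, so 12 in all. Per the labels' protocols, cells were plated at 20000 cells per cm2 and left overnight, then given human recombinant BMP2, a growth factor, at 200 ng/ml for 3 days. BMP2 together with 2 µM rosiglitazone followed for 4 days, and rosiglitazone without BMP2 for another 3 days. Rosiglitazone activates PPARγ, the nuclear receptor that drives fat cell formation. All samples came from this 1 line, and no time-matched untreated cells were analysed here, so treatment, time in culture and cell density cannot be told apart.

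Fat cells obtain most of their fatty acids from triglyceride in circulating lipoproteins. Lipoprotein lipase, secreted by the fat cell and carried to the vessel wall, splits this triglyceride, CD36 and the SLC27 proteins take the released fatty acids across the plasma membrane, FABP proteins bind them in the cytosol, and acyl-CoA synthetases such as ACSL1 trap them as acyl-CoA. Secreted ANGPTL4 inhibits the lipase, and LMF1 helps it fold in the endoplasmic reticulum. In culture there is no vessel wall, and the counts describe RNA, not lipase activity or fatty acid flux.

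Library totals lay between 12820802 and 17570366 counts, and the libraries of a time point correlated at 0.9920 to 0.9946 (Pearson's r of log2 CPM). RNA was drawn from 2 independent experiments, per the labels' protocols, which do not say that a replicate number marks the experiment. Levels are given as TMM-scaled CPM (counts relative to the scaled library total) for library 1 and then library 2 of each time point. Each log2 fold change comes with its standard error (SE), and adjusted p-values are from edgeR's quasi-likelihood test, Benjamini-Hochberg adjusted over 12740 genes, called at an adjusted p below 0.05. The spread behind these tests is pooled over all 6 time points. All 9 genes passed the filter on low counts, but Cd36 and Angptl4 did so only through days 5 to 10, so their difference from the early times was partly built in. The summed CPM of 10 fat cell markers, among them Adipoq, Plin1 and Pparg, was 9760 to 10578 at day 10, against 41.9 to 43.6 at 0 h, and all 10 had counts at day 10. A bulk library cannot tell fewer cells of a type apart from less RNA per cell.

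The promoters of Cd36, Acsl1 and Lmf1 are shown because, of the 5 genes with an entry in the RefSeq table (GRCm38.p6), Cd36 had the largest and Lmf1 the smallest change between day 10 and 0 h, and Acsl1 has entries for 2 starts that differ in base composition. Slc27a1 has 3 entries, between 58.4% and 66.4% G and C, and Slc27a4 has 1 (54.4%), not printed. Each is the 250 bases before an annotated start, read 5′ to 3′ on the gene's strand. Capitals mark matches, on either strand, to the nuclear receptor motif AGGTCA, the CCAAT box or the GC box GGGCGG. The Cd36 window is chr5:17835897-17836146 on the minus strand. It lies inside the annotated gene (chr5:17781690-17888959), so it precedes an internal start, and Cd36 had no other entry. The Acsl1 windows are chr8:46470787-46471036 and chr8:46490716-46490965, both on the plus strand. The Lmf1 window is chr17:25578924-25579173 on the plus strand.
Cd36: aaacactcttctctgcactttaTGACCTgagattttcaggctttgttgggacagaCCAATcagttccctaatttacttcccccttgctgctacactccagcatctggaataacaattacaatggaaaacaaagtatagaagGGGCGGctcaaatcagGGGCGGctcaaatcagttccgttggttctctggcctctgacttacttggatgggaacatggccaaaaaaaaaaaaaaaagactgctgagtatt
Acsl1, upstream start: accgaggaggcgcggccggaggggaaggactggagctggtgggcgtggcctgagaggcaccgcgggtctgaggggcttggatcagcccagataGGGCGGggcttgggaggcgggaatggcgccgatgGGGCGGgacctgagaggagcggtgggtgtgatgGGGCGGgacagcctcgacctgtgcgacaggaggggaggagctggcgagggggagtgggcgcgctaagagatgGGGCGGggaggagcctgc
Acsl1, downstream start: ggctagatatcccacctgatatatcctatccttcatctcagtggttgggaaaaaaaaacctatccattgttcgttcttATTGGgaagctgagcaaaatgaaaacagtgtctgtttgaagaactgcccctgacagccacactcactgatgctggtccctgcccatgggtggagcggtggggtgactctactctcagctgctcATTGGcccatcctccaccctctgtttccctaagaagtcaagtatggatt
Lmf1: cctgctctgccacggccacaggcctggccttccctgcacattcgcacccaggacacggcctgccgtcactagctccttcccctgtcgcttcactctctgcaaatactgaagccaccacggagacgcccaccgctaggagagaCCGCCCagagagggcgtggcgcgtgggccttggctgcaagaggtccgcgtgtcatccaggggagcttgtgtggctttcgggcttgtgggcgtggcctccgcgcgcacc

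The Cd36 window held 43.2% G and C with 3 CpG, and matched AGGTCA in 1 place, the CCAAT box in 1 and the GC box in 2. The upstream Acsl1 window held 72.0% G and C with 20 CpG and 4 GC boxes, whereas the downstream window held 48.4% with 2 CpG and 2 CCAAT boxes. The Lmf1 window held 66.8% with 19 CpG and 1 GC box. Over all 32851 windows of this length, the median was 52.4% G and C (quartiles 45.2 and 61.2) and 6 CpG (quartiles 2 and 16). AGGTCA was in 14.02% of all windows, the CCAAT box in 33.8% and the GC box in 32.7%. A direct repeat of AGGTCA on the same strand with 1 base between, each copy of which also counts as a match to AGGTCA, was in 0.0335% of all windows and in no window of these 5 genes. Counts per gene do not say which start was used.

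By day 10 each of the 9 genes had risen above its 0 h level, by 2.14-fold for Lmf1 up to 10869-fold for Cd36 and 13604-fold for Fabp4, where 42.8% of all genes tested were called higher. By their calls at day 3 they took 3 courses. Lpl, Slc27a1, Acsl1 and Lmf1 had already risen by day 3, where 33.1% of all genes were called higher. Of these, Acsl1 was at only 1.31% of its highest mean at day 3 and rose 37.7-fold at day 5 over day 3. Fabp5 and Slc27a4 had fallen at day 3, where 35% of all genes were called lower, and rose afterwards. Angptl4, Cd36 and Fabp4 were at few counts until day 3, with no call there, and were first called higher at day 5.

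Lpl encodes lipoprotein lipase (Entrez gene 16956, chr8:68880555-68906932, GRCm38.p6). Lpl stood at 23.4 and 28.6 CPM at 0 h, 19.9 and 23.7 at 6 h, 331 and 295 at day 3, 1589 and 1587 at day 5, 3245 and 3335 at day 7, and 4128 and 4007 at day 10. Of the 9 genes it had the largest change at day 3: both day 3 libraries lay far above both 0 h libraries, at the end of the BMP2-only days of the protocol. Lpl rose 12.0-fold at day 3 over 0 h (log2 fold change 3.58, SE 0.11, edgeR adjusted p = 3.22e-14). It rose again by 2.34 (SE 0.098) at day 5 over day 3 and by 1.05 (SE 0.094) at day 7 over day 5, with edgeR adjusted p = 2.20e-12 and 3.34e-07. The last step, day 10 over day 7, was the smallest at 0.31 (SE 0.093, edgeR adjusted p = 0.0204), although the libraries of these days did not overlap. This last call was lost without day 7 library 1 (edgeR adjusted p = 0.1002), without day 7 library 2 (edgeR adjusted p = 0.0750), without day 10 library 1 (edgeR adjusted p = 0.112) or without day 10 library 2 (edgeR adjusted p = 0.0704), and with library totals as the only scaling (edgeR adjusted p = 0.133).

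Lmf1 encodes lipase maturation factor 1 (Entrez gene 76483, chr17:25579174-25662831), without which lipoprotein lipase does not leave the endoplasmic reticulum in active form. Lmf1 stood at 16.4 and 16.2 CPM at 0 h, 18.35 and 16.6 at 6 h, 19.4 and 24.3 at day 3, 34.7 and 31.1 at day 5, 41.95 and 39.8 at day 7, and 38.1 and 31.8 at day 10. Its whole range was narrow beside that of Lpl, and it was present before treatment. Lmf1 rose by 0.42 on the log2 scale at day 3 over 0 h (SE 0.13, edgeR adjusted p = 0.00832), a call that was lost without day 3 library 2, where the value was 0.25 (edgeR adjusted p = 0.137). The step at day 5 over day 3 was 0.59 (SE 0.12, edgeR adjusted p = 0.000387). At day 10 Lmf1 was 2.14-fold above 0 h (log2 fold change 1.10, SE 0.13, edgeR adjusted p = 4.38e-07), the smallest rise of the 9 genes. The call at day 7 over day 5 was marginal at 0.31 (SE 0.12, edgeR adjusted p = 0.0437). It was lost without either 0 h, 6 h or day 7 library or day 5 library 2 (edgeR adjusted p = 0.0506 to 0.249), with upper-quartile scaling (edgeR adjusted p = 0.0750), with library totals (0.11, edgeR adjusted p = 0.434) and in DESeq2 (adjusted p = 0.0667).

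Angptl4 encodes a secreted inhibitor of lipoprotein lipase (Entrez gene 57875, chr17:33774900-33781575). Its raw counts were 3 and 9 at 0 h, 3 and 10 at 6 h, and 10 and 6 at day 3, against 3219 or more in every later library. In CPM, Angptl4 stood at 243 and 192 at day 5, 312 and 285 at day 7, and 316 and 293 at day 10. Thus no library before day 5 reached 1 CPM, and most of the change came in the step to day 5. Angptl4 rose 414-fold at day 5 over day 3 (log2 fold change 8.69, SE 0.22, edgeR adjusted p = 6.11e-13) and was 740-fold above 0 h at day 10 (log2 fold change 9.53, SE 0.23, edgeR adjusted p = 7.98e-14). Both differences were partly built in, because the gene passed the filter on low counts only through days 5 to 10. The 12 counts at 0 h have a 95% exact Poisson interval of 6.20 to 20.96, which covers counting error only. Angptl4 had reached 71.6% of its day 10 mean by day 5, the highest share of the 6 genes that peaked at day 10. The call at day 7 over day 5 (0.45, SE 0.11, edgeR adjusted p = 0.00635) was lost without day 5 library 2 (0.29, edgeR adjusted p = 0.0578), without day 7 library 1 (edgeR adjusted p = 0.0633) and with library totals (0.26, edgeR adjusted p = 0.0598).

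**Figure D1:**
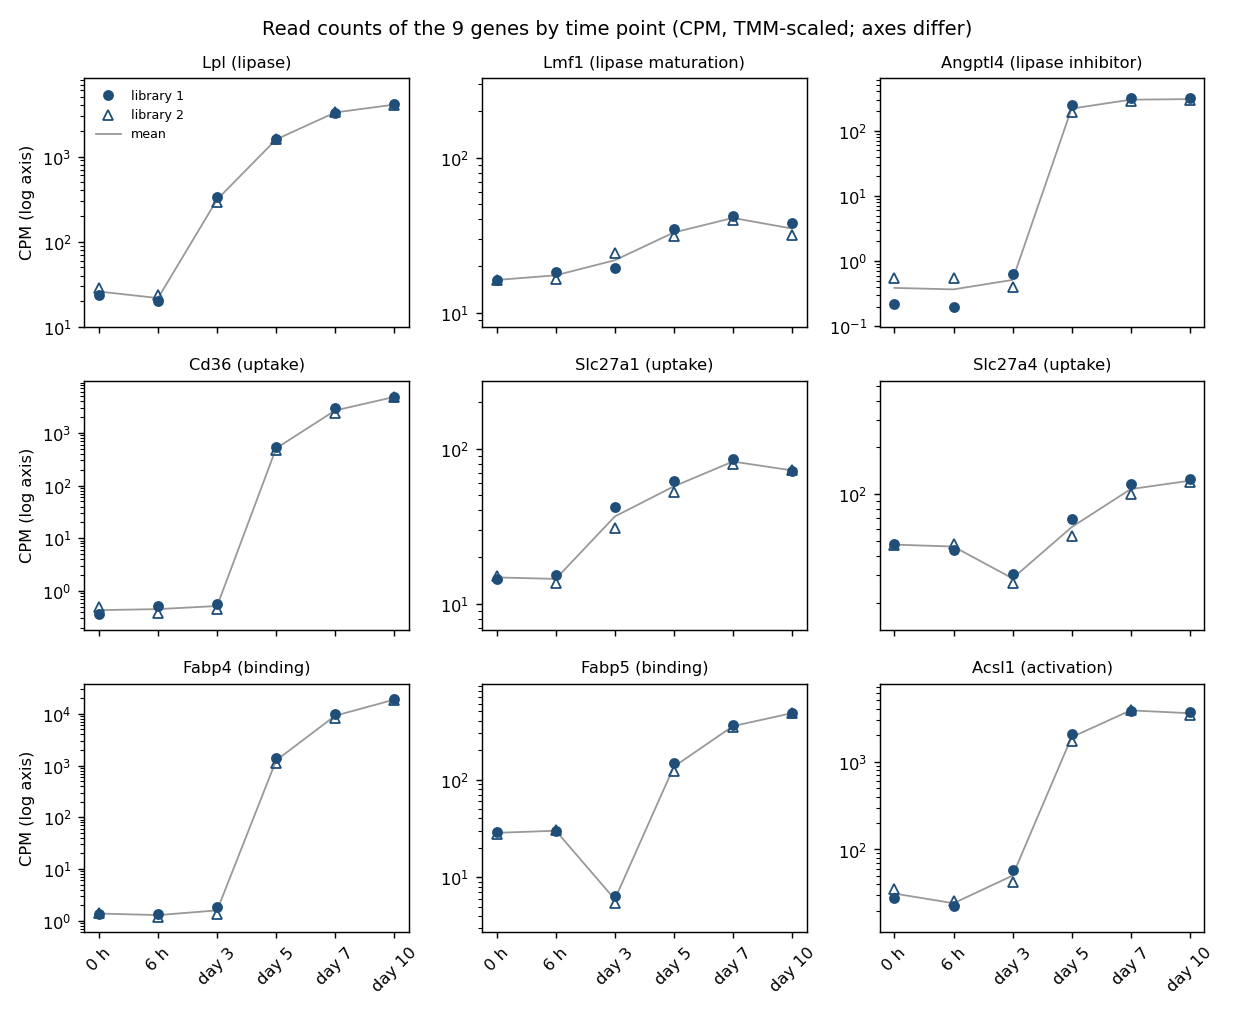
CPM with TMM scaling (log axes that differ between panels) for each of the 9 genes at 0 h, 6 h and days 3, 5, 7 and 10. Filled circles are library 1, open triangles library 2 and lines their mean; Lpl climbs from day 3, Angptl4, Cd36 and Fabp4 from day 5, and Fabp5 and Slc27a4 dip at day 3.

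Cd36 encodes the scavenger receptor that takes up long-chain fatty acids (Entrez gene 12491, chr5:17781690-17888959). Its raw counts were 5 and 8 at 0 h, 8 and 7 at 6 h, and 9 and 7 at day 3. In CPM, Cd36 stood at 543 and 480.2 at day 5, 2973 and 2378 at day 7, and 4811 and 4849 at day 10. The early libraries all lay below 1 CPM and overlapped one another, and each later time point lay clear of the one before it. Cd36 rose 974-fold at day 5 over day 3 (log2 fold change 9.93, SE 0.18, edgeR adjusted p = 2.08e-16). By its estimate this was the largest single step of the 9 genes, with Fabp4 close to it (9.63, SE 0.18). The step of Cd36 was partly built in, because the gene passed the filter on low counts only through days 5 to 10. The 16 counts of Cd36 at day 3 have a 95% exact Poisson interval of 9.15 to 25.98. Cd36 rose by a further 2.39 at day 7 over day 5 (SE 0.10, edgeR adjusted p = 1.01e-10) and by 0.85 at day 10 over day 7 (SE 0.097, edgeR adjusted p = 6.75e-06). The 13 counts at 0 h have a 95% exact Poisson interval of 6.92 to 22.2, which limits how well any fold against 0 h is known. Macrophages and endothelial cells also use Cd36. Of 10 macrophage and leukocyte markers 7 had a row in the table. Their summed CPM was 9.11 to 10.6 at day 10, against 11.6 to 12.0 at 0 h, and the members went both ways. Cd14 averaged 6.09 CPM at day 10 and 9.42 at 0 h, and Csf1r 0.0831 and 0.984, whereas Cd68 averaged 3.24 at day 10 (7.54 at day 5) and 1.04 at 0 h, and Fcer1g 0.339 and 0.0927. Ptprc was at 0 at both times, and Adgre1, Itgam and Tyrobp had no row. The summed CPM of 10 endothelial markers, 6 of them with a row, was 4.12 to 4.37 at day 10, against 1.67 to 1.84 at 0 h, with Cdh5 and Kdr at 0 at day 10 and no row for Emcn, Cldn5, Erg and Gpihbp1. Most of the day 10 sum was Pecam1, with 90 counts and a mean of 3.69 CPM at day 10, against 1 count and 0.0309 CPM at 0 h, and Egfl7 was at 0.371 CPM, against 1.04. The part of these markers in the Cd36 result was not tested.

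Slc27a1 encodes fatty acid transport protein FATP1 (Entrez gene 26457, chr8:71568728-71587307), an acyl-CoA synthetase as well as a transporter. Slc27a1 stood at 14.5 and 15.02 CPM at 0 h, 15.3 and 13.6 at 6 h, 42.3 and 30.7 at day 3, 61.8 and 52.3 at day 5, 85.6 and 79.4 at day 7, and 72.0 and 72.6 at day 10. As with Lpl, both day 3 libraries lay above every library of 0 h and 6 h. Slc27a1 rose 2.47-fold at day 3 over 0 h (log2 fold change 1.30, SE 0.14, edgeR adjusted p = 5.59e-07). Further rises were 0.64 at day 5 over day 3 (SE 0.12, edgeR adjusted p = 0.000298) and 0.53 at day 7 over day 5 (SE 0.12, edgeR adjusted p = 0.00252), the second of them 0.33 with library totals (edgeR adjusted p = 0.0248). Day 10 stood 4.89-fold above 0 h (log2 fold change 2.29, SE 0.14, edgeR adjusted p = 1.96e-10).

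Slc27a4 encodes FATP4 (Entrez gene 26569, chr2:29802634-29817522), a relative of FATP1. Slc27a4 stood at 47.4 and 47.2 CPM at 0 h, 43.8 and 48.0 at 6 h, 30.5 and 26.8 at day 3, 69.0 and 53.4 at day 5, 115 and 100.001 at day 7, and 124 and 119 at day 10. Day 3 was the low point, below every other library, while Slc27a1 was already higher at that time. Slc27a4 fell by 0.72 on the log2 scale at day 3 relative to 0 h (SE 0.12, edgeR adjusted p = 5.47e-05). It then rose by 1.09 at day 5 over day 3 (SE 0.12, edgeR adjusted p = 5.83e-07) and by 0.82 at day 7 over day 5 (SE 0.11, edgeR adjusted p = 2.92e-05). Day 5 stood above 0 h by 0.37 (SE 0.11, edgeR adjusted p = 0.00678), a call that was lost without day 5 library 1, where the value was 0.15 (edgeR adjusted p = 0.223). By day 10 Slc27a4 was 2.58-fold above 0 h (log2 fold change 1.37, SE 0.11, edgeR adjusted p = 9.31e-09).

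Fabp4 encodes the cytosolic binding protein typical of fat cells, also called aP2 (Entrez gene 11770, chr3:10204342-10208616). Fabp4 stood at 1.32 and 1.42 CPM at 0 h, 1.37 and 1.19 at 6 h, 1.84 and 1.32 at day 3, 1386 and 1129 at day 5, 10089.6 and 8322 at day 7, and 19233 and 18418 at day 10. The 6 early libraries overlapped one another, and the later time points did not. Fabp4 rose 790.3-fold at day 5 over day 3 (log2 fold change 9.63, SE 0.18, edgeR adjusted p = 2.26e-16). It rose by a further 2.87 at day 7 over day 5 (SE 0.12, edgeR adjusted p = 5.32e-11) and by 1.03 at day 10 over day 7 (SE 0.11, edgeR adjusted p = 3.15e-06), the largest change of the 9 genes in both steps. At day 10 Fabp4 took 1.57% and 1.55% of all counts in its libraries.

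Fabp5 encodes the epidermal fatty acid binding protein (Entrez gene 16592, chr3:10012585-10016610), which many cell types express. Fabp5 stood at 29.1 and 27.8 CPM at 0 h, 29.7 and 30.1 at 6 h, 6.41 and 5.46 at day 3, 149.5 and 121 at day 5, 359 and 346 at day 7, and 478 and 481 at day 10. Like Slc27a4 it was lowest at day 3, with no overlap with any other time point, but its dip was deeper. Fabp5 fell by 2.26 on the log2 scale at day 3 relative to 0 h (SE 0.12, edgeR adjusted p = 6.34e-11), a 4.78-fold lower level. It then rose 22.8-fold at day 5 over day 3 (log2 fold change 4.51, SE 0.11, edgeR adjusted p = 5.84e-15), by 1.38 at day 7 over day 5 (SE 0.085, edgeR adjusted p = 4.62e-09) and by 0.44 at day 10 over day 7 (SE 0.083, edgeR adjusted p = 0.000748). Day 10 stood 16.9-fold above 0 h (log2 fold change 4.07, SE 0.098, edgeR adjusted p = 5.62e-16). A pseudogene copy, Fabp5l2, is annotated, so the Fabp5 level is uncertain as far as the authors' counting could split reads between them.

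Acsl1 encodes long-chain acyl-CoA synthetase 1 (Entrez gene 14081, chr8:46471037-46536051), the main such enzyme of fat cells, which activates fatty acids to acyl-CoA. Acsl1 stood at 27.9 and 35.1 CPM at 0 h, 22.8 and 26.0 at 6 h, 57.7 and 43.0 at day 3, 2080.3 and 1717 at day 5, 3805 and 3871 at day 7, and 3682 and 3441 at day 10. Both day 3 libraries were above both 0 h libraries by a small margin, and the bulk of the rise came at day 5. Acsl1 rose by 0.67 at day 3 over 0 h (SE 0.15, edgeR adjusted p = 0.00128), or by 0.44 without day 3 library 1 (edgeR adjusted p = 0.0146). It rose 37.7-fold at day 5 over day 3 (log2 fold change 5.24, SE 0.16, edgeR adjusted p = 6.39e-12) and 2.02-fold at day 7 over day 5 (log2 fold change 1.02, SE 0.13, edgeR adjusted p = 6.45e-05). At day 10 it was 113-fold above 0 h (log2 fold change 6.82, SE 0.17, edgeR adjusted p = 2.55e-13). A long noncoding gene, Gm31050, overlaps Acsl1 in the RefSeq annotation, and whether the counting used strand is not given in the sources used here.

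Set side by side, the 9 genes reached their highest mean at 2 times: 6 of them at day 10, and Lmf1, Slc27a1 and Acsl1 at day 7. By day 3 the mean had reached 7.69% of its highest value for Lpl, 44.3% for Slc27a1 and 53.4% for Lmf1. It was at 1.31% for Acsl1, 0.0107% for Cd36 and 0.00839% for Fabp4. By day 5 Acsl1 stood at 49.5% of its highest mean, Lpl at 39.0%, Cd36 at 10.6% and Fabp4 at 6.68%. The inhibitor Angptl4 was therefore nearer its final level at day 5 than the lipase gene Lpl, and the binding protein Fabp4 was the farthest from it of the 9.

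**Figure D2:**
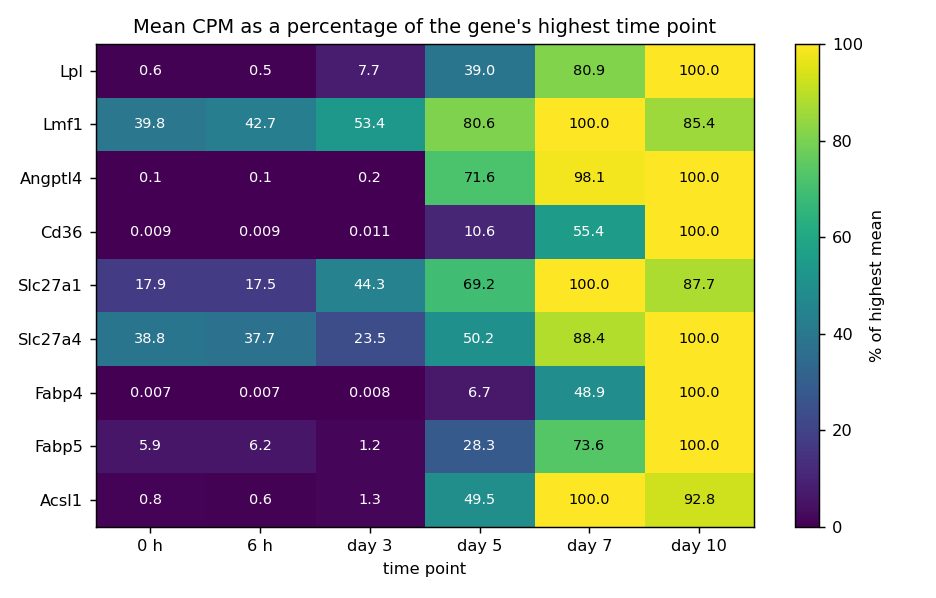
Mean CPM of each gene at each time point as a percentage of the highest mean of that gene (colour and number; 2 libraries a mean). At day 5 the genes range between 6.7% for Fabp4 and 80.6% for Lmf1.

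At 6 h none of the 9 genes was called against 0 h by edgeR's quasi-likelihood test or by DESeq2, where edgeR called 0.746% of all genes tested. At an unadjusted p below 0.05, edgeR found 2 genes lower, Lpl (-0.25, SE 0.11, adjusted p = 0.733) and Acsl1 (-0.37, SE 0.15, adjusted p = 0.723). The share of all genes at this unadjusted cut is not given here. Of all genes tested, 8.45% had a lower log2 fold change than Lpl and 5.36% a lower one than Acsl1. With no filter on low counts Acsl1 passed (edgeR adjusted p = 0.0252). At day 3 against 0 h, 4 genes rose (Lpl, Slc27a1, Acsl1 and Lmf1), 2 fell (Fabp5 and Slc27a4) and 3 were not called, where 33.1% of all genes tested were called higher and 35% lower. The 3 without a call were Angptl4 (0.35, SE 0.64), Cd36 (0.24, SE 0.46) and Fabp4 (0.20, SE 0.29), all at few counts. The median log2 fold change of the 9 genes was 0.35, against 0 over all genes tested.

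At day 5 against day 3 all 9 genes rose, where 34% of all genes tested were called higher and 31% lower, and their median log2 fold change was 4.51, against 0.01 over all genes. The range ran between 0.59 for Lmf1 and 9.93 for Cd36. Cd36 and Angptl4 passed the filter on low counts only through days 5 to 10, so their rise over day 3 was partly built in. At day 7 against day 5 all 9 rose again, where 19% of all genes were called higher and 18.8% lower, with a median of 1.02, against -0.01 over all genes. Cd36 and Fabp4, the genes farthest below their final level, rose most in this step. The calls of Lmf1 (0.11) and Angptl4 (0.26) in this step were lost with library totals as the only scaling. Lmf1 also had no call with upper-quartile scaling or in DESeq2. At day 10 against day 7, 4 genes rose (Fabp4, Cd36, Fabp5 and Lpl) and 5 were not called, where 15.1% of all genes were called higher and 13.2% lower. None was lower by edgeR at an adjusted p, at an unadjusted p below 0.05 or by DESeq2. The genes without a call were Lmf1 (-0.23, SE 0.12), Slc27a1 (-0.19, SE 0.12), Acsl1 (-0.11, SE 0.13), Angptl4 (0.03, SE 0.11) and Slc27a4 (0.18, SE 0.11). With library totals as the only scaling, Lmf1 (-0.35, edgeR adjusted p = 0.0273) and Slc27a1 (-0.31, edgeR adjusted p = 0.0452) were called lower and Angptl4 turned to -0.10. Lpl lost its call with this scaling (0.18, edgeR adjusted p = 0.133), and also without any 1 library of day 7 or day 10.

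**Figure D3:**
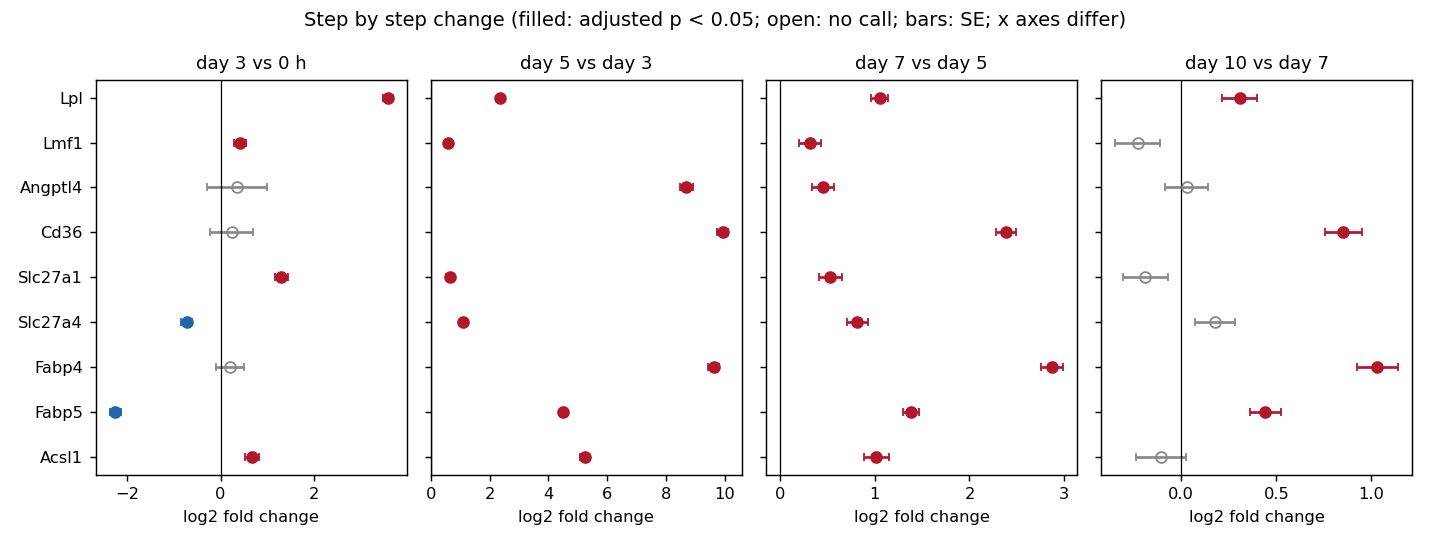
Log2 fold change of each gene in 4 successive comparisons, with bars of 1 SE (x axes differ). Filled points passed an edgeR adjusted p of 0.05 (red higher, blue lower) and open grey points did not. All 9 genes are higher at day 5 against day 3 and at day 7 against day 5. In some alternative runs Lmf1 and Angptl4 lost the call at day 7 against day 5. Lmf1 also lost its call at day 3 against 0 h in 1 run, and Lpl its call at day 10 against day 7 in several.

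Against 0 h, all 9 genes were higher at day 5, day 7 and day 10, where 40.3%, 41.7% and 42.8% of all genes tested were called higher and 37.6%, 39.4% and 39.9% lower. These comparisons share the 0 h libraries, and for Cd36 and Angptl4 the filter on low counts built part of the difference in. At day 10 the median log2 fold change of the 9 genes was 6.82, against 0.06 over all genes, and 6 of the 9 (Fabp4, Cd36, Angptl4, Lpl, Acsl1 and Fabp5) lay above 4. The lowest of these 6, Fabp5, had a larger change than 93.3% of all genes tested. The 9 genes also differed between time points in the joint test (edgeR adjusted p from 5.99e-20 to 2.64e-08), as did 94.7% of all genes. Of all calls, 51.7% were higher at day 10 against 0 h, 50.4% at day 7 against day 5 and 53.4% at day 10 against day 7. With library totals as the only scaling these shares were 40.5%, 23.3% and 29.7%, and the median of all genes at day 10 against 0 h was -0.30. The direction and call of all 9 genes at day 10 against 0 h held under every alternative run.

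**Figure D4:**
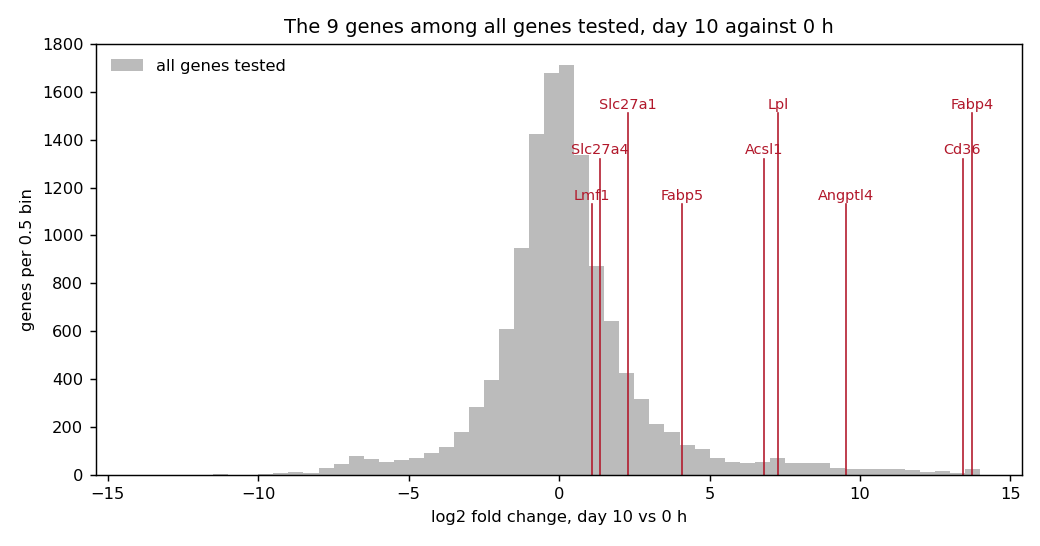
Distribution of the log2 fold change at day 10 against 0 h over the 12740 genes tested (grey bars, genes per bin of 0.5), with a red line at the value of each of the 9 genes. The lines run from 1.10 for Lmf1 to 13.73 for Fabp4, all right of 0.

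Levels of different genes were compared per length, as CPM per kilobase of the deposited gene length (RPKM). At 0 h, by this length, Fabp5 stood highest with 29.9 ± 0.934 RPKM (SD, n = 2), followed by Slc27a4 at 11.8 ± 0.0342 and Lmf1 at 8.75 ± 0.0677. Acsl1 at 7.69 ± 1.24 and Lpl at 6.42 ± 0.897 overlapped, as did Angptl4 at 0.204 ± 0.1249 and Cd36 at 0.110 ± 0.0229 at the bottom of the order. At day 3 Lpl led with 77.2 ± 6.23, and Slc27a1, Acsl1 and Lmf1 followed between 11.7 and 13.1 with overlapping libraries. At day 10 the order was Fabp4 (29369 ± 899), Cd36 (1230 ± 6.80), Lpl (1005 ± 21.1), Acsl1 (870.1 ± 41.7), Fabp5 (503 ± 2.55), Angptl4 (160 ± 8.51), Slc27a4 (30.4 ± 0.903), Slc27a1 (25.9 ± 0.145) and Lmf1 (18.8 ± 2.39), and no neighbours overlapped. This day 10 order was the same with the lengths of the longest transcript or of all GENCODE exons, but the distance was not: Fabp4 had 4194 RPKM with all exons. Among all genes in the table, by the deposited lengths, Fabp4 ranked 1 in both day 10 libraries, Cd36 ranked 29 and 26, and Lpl 43 and 41. Ranks among all genes were not worked out with the other lengths.

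The summed level of the 9 genes was 72.3 ± 1.48 RPKM at 0 h, 71.1 ± 1.03 at 6 h and 131 ± 11.9 at day 3 (SD, n = 2). It then reached 3258 ± 404 RPKM at day 5, with 17398 ± 2055 by day 7 and 33211 ± 964 by day 10. Fabp5 made up 41.3% ± 2.14 of it at 0 h, Lpl 59.2% ± 0.623 at day 3, and Fabp4 60.1% ± 1.24 at day 5, 82.5% ± 1.47 at day 7 and 88.4% ± 0.140 at day 10. The leading gene was thus a different one at 0 h, at day 3 and from day 5 on. These shares depended on the length. Lpl led at day 3 with each length, at 68.2% of the summed mean with the longest transcript and 58.2% with all GENCODE exons. Slc27a4 led Fabp5 at 0 h with the longest transcript (28.0% of the summed mean, against 21.1%) and with all GENCODE exons (37.7%, against 28.0%). With the longest transcript Lpl led Fabp4 at day 5 (29.3%, against 22.6%). At day 10 Fabp4 led with any of the lengths, at 57.1% with the longest transcript and 64.2% with all exons.

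**Figure D5:**
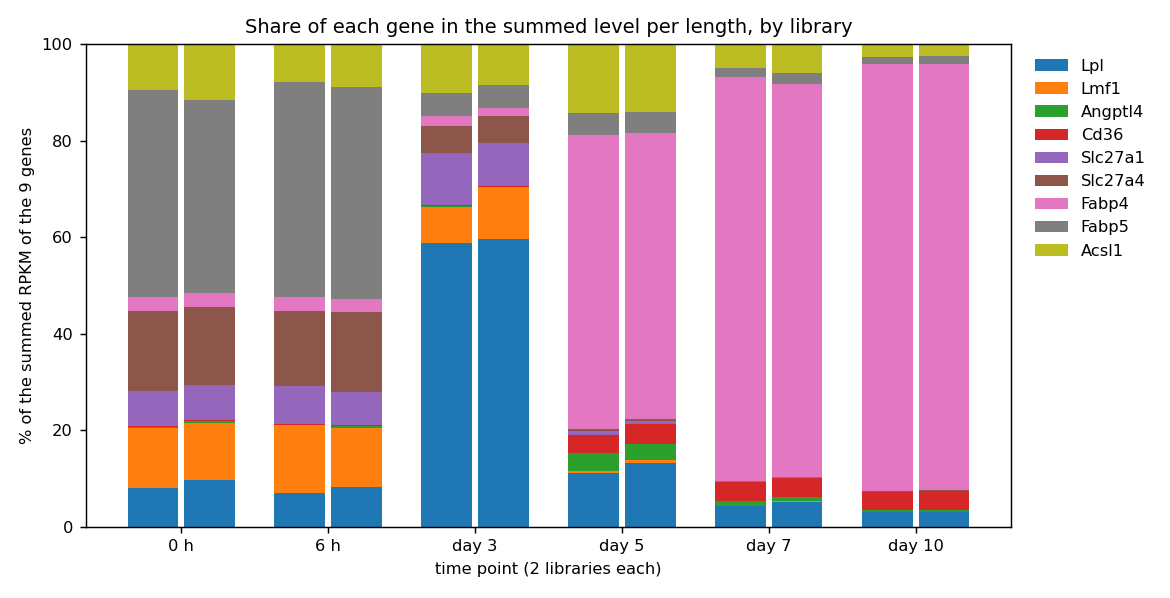
Share of each of the 9 genes in their summed RPKM, 1 bar a library. By the deposited lengths Fabp5 is the largest part at 0 h and 6 h, Lpl at day 3 and Fabp4 at days 5, 7 and 10. With other lengths Slc27a4 leads at 0 h and 6 h and, in 1 case, Lpl at day 5.

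Between the binding proteins, the ratio of Fabp4 to Fabp5 per length was 0.0676 and 0.0760 at 0 h, 0.427 and 0.358 at day 3, 13.8 in both libraries at day 5, 41.8 and 35.8 at day 7, and 59.9 and 56.9 at day 10. Fabp5 was thus the more abundant RNA up to day 3 and Fabp4 from day 5 on. At day 3 Fabp5 was lower than at 0 h and Fabp4 had no call. The ratio of Lpl to its inhibitor Angptl4 was 50.0 and 24.1 at 0 h, 245 and 351 at day 3, 3.07 and 3.88 at day 5, 4.89 and 5.51 at day 7, and 6.15 and 6.44 at day 10. It was highest at day 3, when Lpl was already up and Angptl4 had no call, though the early values rest on 3 to 10 counts of Angptl4. The ratio of Slc27a1 to Slc27a4 was 0.440 and 0.457 at 0 h, 1.99 and 1.65 at day 3, 1.29 and 1.40 at day 5, 1.06 and 1.14 at day 7, and 0.830 and 0.873 at day 10. By the deposited lengths Slc27a1 was ahead at days 3, 5 and 7. With all GENCODE exons it was behind even at day 3 (6.26 RPKM, against 6.49 for Slc27a4), so the change of the ratio over time holds for any length but the order does not.

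Over the 12 libraries, which share the time course, the highest Pearson correlation of log2 CPM between any of these genes was 0.9995, for Cd36 and Fabp4, followed by 0.9949 for Angptl4 and Acsl1. Lpl and Slc27a1, both higher at day 3, correlated at 0.99, and Slc27a4 and Fabp5, both lower at day 3, at 0.976. The lowest value was 0.6727, for Slc27a1 and Slc27a4. Predicted or unnamed genes, Rik genes and pseudogenes were passed over in the search for like profiles. Among the other genes tested, the profiles most like Cd36 were Slc36a2, Fabp4 and Plin5, and those most like Fabp4 were Apmap (0.9996), Plin5 and Cd36. For Lpl they were Pdk2 (0.9983), Aldh6a1 and Tigd2, for Angptl4 Lgals12 (0.9983), Qsox1 and Chp1, and for Acsl1 Acadvl (0.9992), Fam13a and Pex16. For Slc27a1 they were Ubxn6 (0.9965), Rab5b and Mindy1, for Slc27a4 Dhrs4 (0.9935), D8Ertd738e and Pgk1, for Fabp5 Tmem242 (0.9956), Slc16a1 and Slc5a6, and for Lmf1 Ubb (0.9919), Asb1 and Dtx2.

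A wider list of 37 genes of lipase control, lipoprotein receptors and the same protein families had 29 with a row and 22 tested. At day 10 against 0 h 12 of the 22 were higher, 5 lower and 5 not called, where 42.8% of all genes tested were called higher and 39.9% lower, with a median log2 fold change of 1.31, or 0.98 with the 6 genes at 0 to 3 counts at 0 h set to their bound or ratio. At day 3 against 0 h 4 were higher and 8 lower (33.1% and 35% of all genes), and at day 5 against day 3 10 were higher and 4 lower (34% and 31% of all genes). At day 7 against day 5 8 were higher and 4 lower (19% and 18.8% of all genes), and at day 10 against day 7 11 were higher and 3 lower (15.1% and 13.2% of all genes). Apoc3, an apolipoprotein that slows lipase action, had 1070 and 1036 counts at day 10, against 0 and 0 counts at 0 h, at least 864-fold higher where the 0 h group is set to a floor of 3 counts in total. Apoc1, another such apolipoprotein, had 616 and 761 counts at day 10, against 0 and 1 at 0 h, a ratio of 1694 (95% counting interval 304 to 66954). Fabp3, the heart type binding protein, had 67 and 100 counts at day 10, against 0 and 0 at 0 h, at least 68.5-fold higher with the same floor. These 3 passed the filter only through the later times.

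The most abundant genes of the wider list were Dbi, Lrp1 and Acsl4. Dbi, which binds acyl-CoA, averaged 2185 ± 51.7 CPM at day 10 and 139 ± 9.36 at 0 h (SD, n = 2), a rise of 3.97 on the log2 scale (SE 0.28, edgeR adjusted p = 2.84e-06). Lrp1, a lipoprotein receptor, averaged 205 ± 15.3 CPM at day 10 and 298 ± 49.5 at 0 h and was not called (-0.54, SE 0.48, edgeR adjusted p = 0.328). Acsl4, a synthetase that prefers arachidonic acid, averaged 153 ± 6.08 CPM at day 10 and 284 ± 3.04 at 0 h, and fell by 0.89 on the log2 scale (SE 0.12, edgeR adjusted p = 1.80e-05). Chosen after their values were seen, Acsl5 fell by 1.62 (SE 0.11, edgeR adjusted p = 8.59e-10) and Acsl3 rose by 2.34 (SE 0.15, edgeR adjusted p = 3.98e-08), so the synthetase relatives of Acsl1 did not move in 1 direction. Also chosen after its values were seen, the lipoprotein receptor gene Vldlr had 1828 and 2009 counts at day 3, against 56 and 76 at 0 h. This was a rise of 4.81 (SE 0.14, edgeR adjusted p = 8.66e-14) at the time when Lpl first rose. Unlike Lpl, Vldlr then fell by 1.44 at day 5 against day 3 (SE 0.10, edgeR adjusted p = 6.55e-09). It rose again by 1.77 at day 7 over day 5 (SE 0.105, edgeR adjusted p = 6.00e-09). Lmf2, the relative of Lmf1, was likewise picked afterwards and fell by 1.77 at day 10 relative to 0 h (SE 0.095, edgeR adjusted p = 1.70e-11), whereas Lmf1 rose.

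Beside these rises, the summed CPM of 10 muscle markers, 7 of them with a row, was 53.0 to 67.1 at day 10, against 1.91 to 2.66 at 0 h. Mb alone averaged 57.8 CPM at day 10 (1387 counts), against 0 counts at 0 h. The other markers with a row stayed near or below 1 CPM at day 10: Acta1 at 1.12 CPM, against 1.30 at 0 h, Des at 0.939, against 0.191, and Myh1 at 0.0831, against 0.684. Ckm, Myod1 and Myog had no row. Muscle also uses Lpl, Slc27a1 and Fabp3. The part of these markers in the results was not tested. A list of 8 genes to check the mesenchymal line, 6 mesenchymal and 2 epithelial (Cdh1 and Epcam), summed to 9190 to 9562 CPM at 0 h, 10468 to 15169.7 at day 3 and 2959 to 3297 at day 10. Vim averaged 2178 CPM at day 10 and 7172 at 0 h, Fn1 509 and 1646 (9794 at day 3), and Cdh2 88.9 and 294. The transcription factor genes Zeb1 (107 CPM at day 10 and 94.1 at 0 h), Zeb2 (205 and 153) and Twist1 (33.5 and 16.6) were not lower. Epcam averaged 5.74 CPM at day 10, against 0 counts at 0 h, and Cdh1 0.402, against 0.560.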

How the data were processed

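The deposited values are raw read counts per gene, made by the authors. STAR and mm10 are named per the submitters' processing notes, while version, counting tool and gene annotation were not given in the sources used here. A deposited gene length in bases, also from the authors' table, served for RPKM. Of 17090 Entrez identifiers, 17045 were named with RefSeq (GRCm38.p6), 4 with GENCODE and 41 not at all.

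All 12 libraries were fitted together, each time point with its own mean (edgeR 4.0.16, R 4.3.3, TMM, filterByExpr with a minimum count of 10.0, robust quasi-likelihood F test). The filter removed 4350 genes. SE is the size of the log2 fold change over the square root of F. The fit was also run on simulated data with the same spread for all genes and changes at day 10 only. Far fewer genes changed there than in these data, so that run does not test the scaling used here. The common biological coefficient of variation was 0.0737, on 6 residual degrees of freedom.

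The 9 genes and all lists were chosen with earlier results of these data known. By rule, the text names the 9 genes and the 3 most like each over the libraries. Predicted or unnamed genes, Rik genes and pseudogenes were passed over for these 3. From the wider list, it names the 3 called genes that changed most and the 3 of highest mean CPM. The length was planned as the union of annotated exons, but in GENCODE these include retained introns, so the deposited length was used instead. This change was made after the plan. Alternatives were other scaling, no filter, DESeq2 1.42.0, a replicate block, other lengths and leaving out each library.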

Additional observations from a re-analysis of the deposited data

How the results depend on the processing

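All 162 alternative values of the 9 genes at day 10 against 0 h kept their direction and call. Scaling by library totals alone gave 1457 genes higher and 4791 lower at day 7 against day 5, against 2425 and 2390 with TMM. At day 10 against day 7 it gave 3183 lower, with 2 of the 9 genes among the genes called lower, Angptl4 at -0.10, and no call for Lpl (0.18). Without the filter, 173 genes were higher and 102 lower at 6 h, 1 of the 9 (Acsl1) among the lower. The cause of these shifts was not tested. All GENCODE exons were the length first planned, and the deposited length replaced it after the plan. With all exons, day 10 RPKM was 388 for Lpl, 2.57 for Lmf1, 85.9 for Angptl4, 1345 for Cd36 and 12.4 for Slc27a1. It was 27.6 for Slc27a4, 4194 for Fabp4, 134 for Fabp5 and 340 for Acsl1. With the longest transcript it was 9.04 for Lmf1, 91.9 for Angptl4, 1421 for Cd36, 22.5 for Slc27a1, 4449 for Fabp4, 148 for Fabp5 and 627 for Acsl1. Lengths differ by construction.

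Leaving out 1 library at a time, the genes called at 6 h ranged from 29 to 97 higher and from 6 to 44 lower. Without 0 h library 1 or library 2 there were 29 higher each, without 6 h library 1 there were 45 and without 6 h library 2 there were 32. At day 10 against day 7 the calls ranged from 1202 to 2105 higher and from 941 to 1894 lower, with both lowest values without day 7 library 2. Without day 10 library 1 there were 1056 lower and without day 10 library 2 there were 1034. At day 7 against day 5 the range was 1442 (without day 7 library 1) to 2562 lower. Values that had no call and changed sign ranged at 6 h from -0.20 to 0.27 for Cd36, from -1.01 to 0.78 for Angptl4, from -0.11 to 0.0221 for Slc27a4 and from -0.12 to 0.0479 for Slc27a1. At day 3 against 0 h they ranged from -0.11 to 1.20 for Angptl4 and from -0.0647 to 0.42 for Fabp4, and at day 10 against day 7 from -0.0369 to 0.0939 for Angptl4. The cause was not tested.

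The labels do not tie replicate numbers to experiments, and deviations of same-numbered libraries correlated at -0.0913 to 0.193 over 15 pairs of time points. A replicate block changed no call of the 9 genes, and gave 5470 genes higher at day 10 against 0 h, against 5448 without it. With 3 to 10 counts of Angptl4 and 5 to 9 of Cd36 in each library up to day 3, changes among the early times could not be resolved at this depth. P-values rest on 2 libraries a time point.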
